A study of Mus musculus and Homo sapiens with 10 samples.

Results

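The laminin chains are the genes Lama1, Lama2, Lama3, Lama4, Lama5, Lamb1, Lamb2, Lamb3 and Lamc1. They were taken by symbol from the gene table of the mESC libraries, where all 9 were present among 25899 genes, and in upper case from the hESC table, where all 9 were present among 35720 genes. The set was chosen by its variance-stabilised values in these libraries: Lama3 was singled out because it was higher after vitC in mESCs, and the other chains because they can assemble with it or stand in its place. The vitC difference of the chains in mESCs is therefore given as a description, with no p-value, and counts of calls in it stand only beside the share of all genes. RNA-seq was available for E14 mESCs, a widely used line of pluripotent mouse cells, kept without feeder cells in 2i media with LIF. Of these libraries, 4 came from untreated cultures and 4 from cultures given vitC at 100 µg/ml for 24 h. Each treated library shares a culture label with an untreated one, 10, 11, 35B and 35C for replicates 1, 2, 3 and 4, so that the libraries form 4 pairs. The human data were 1 untreated and 1 vitC-treated library, at the same dose and time, of primed hESCs. The labels give the line as H9 and the medium as KSR with bFGF. The study's methods describe that medium for H9-NK2, a derivative with doxycycline-inducible KLF2 and NANOG transgenes, and another medium for H9, so that the line is not settled.

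Laminins are secreted glycoproteins of the basement membrane, each made of an alpha, a beta and a gamma chain that join through a long coiled coil inside the endoplasmic reticulum. The alpha chain carries the globular domains that bind integrins and dystroglycan at the cell surface, whereas the beta and gamma chains contribute to the sheet that laminins form with one another. Trimers with Lama1 or Lama5, a beta chain and Lamc1 are the main laminins of the early embryo and support pluripotent cells in culture. Lama3 is best known from epithelia, where its protein assembles with that of Lamb3 into the laminin beneath hemidesmosomes. Lamc3 was also followed as a possible partner.

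The mESC libraries held between 3354852 and 6921305 reads over genes, and the hESC libraries 15367652 and 17188555. Deposited gene values were variance-stabilised, which is close to a log2 scale for well-expressed genes and compresses the differences of genes with few reads. Whole reads could be recovered from them, and normalised reads are these reads divided by a size factor for the depth of the library. The difference between cultures 10 and 11 and cultures 35B and 35C was a strong feature of the data. Deviations from the group means were compared between control and vitC libraries. They correlated at 0.574 to 0.765 within a culture set and at -0.709 to -0.546 between the sets. The first principal component held 61.9% of the variance, and what it follows was not examined. As this difference is part of the replicate spread in an unpaired fit, the standard error (SE) is given below for the unpaired fit and for the fit with the pair as a block. Naive pluripotency markers were abundant in every mESC library, with a summed level of 30776 to 34541 normalised reads over 14 genes. In a bulk library, a change in the share of cells with a transcript and a change per cell cannot be told apart.

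In untreated mESCs the chains covered a wide range of levels. Per kb of the longest annotated transcript, Lamc1 was at 426 ± 66.0 normalised reads (SD, n = 4), above every other chain in every control library. Lama5 followed at 161 ± 36.7 per kb and Lama1 at 130 ± 59.8, and the ranges of this pair overlapped. Of the beta chains, Lamb2 was at 64.3 ± 6.31 and Lamb1 at 46.7 ± 15.7 per kb, with overlapping ranges. With the union of exons as the length, Lamb2 was at 59.5 ± 5.84 and Lamb1 at 27.2 ± 9.17, and the ranges no longer overlapped. Lamb3 at 8.44 ± 8.39 and Lama3 at 3.82 ± 1.53 per kb had overlapping ranges, below that of Lamb1. Lama4, a chain of blood vessels and mesenchyme, and Lama2, the chain of muscle and peripheral nerve, lay below all of these at 0.381 ± 0.206 and 0.0434 ± 0.0867 per kb. Lamc3 had 0 reads in all 8 mESC libraries. The alpha chain pool of these cells was thus made of Lama5 and Lama1, with Lama3 as a minor member.

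Lama3 lies at chr18:12333819-12583013 on the plus strand of GRCm38. The control libraries held 71, 45, 32 and 28 reads of it for replicates 1 to 4, or 59.2, 44.8, 36.3 and 20.7 normalised reads. The vitC libraries held 233, 298, 116 and 161 reads, or 224, 268, 178 and 174 normalised reads. The lowest vitC library was well above the highest control, and the groups did not overlap. On the variance-stabilised scale Lama3 moved from 7.18 ± 0.21 to 8.38 ± 0.19 (SD, n = 4), a difference of 1.20 (SE 0.12 unpaired, 0.06 paired), with 1.04 to 1.37 within the pairs. On recovered reads its mean went from 40.3 ± 16.1 to 211 ± 44.2 normalised reads (SD, n = 4), and edgeR fitted a log2 fold change of 2.39, a 5.25-fold difference. On the variance-stabilised scale the difference was 1.20 in cultures 10 and 11 and 1.20 in 35B and 35C. That scale compresses differences at few reads, so equal values there need not mean equal fold differences. Normalised reads went from 59.2 and 44.8 to 224 and 268 in cultures 10 and 11. In 35B and 35C they went from 36.3 and 20.7 to 178 and 174.

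**Figure D1:**
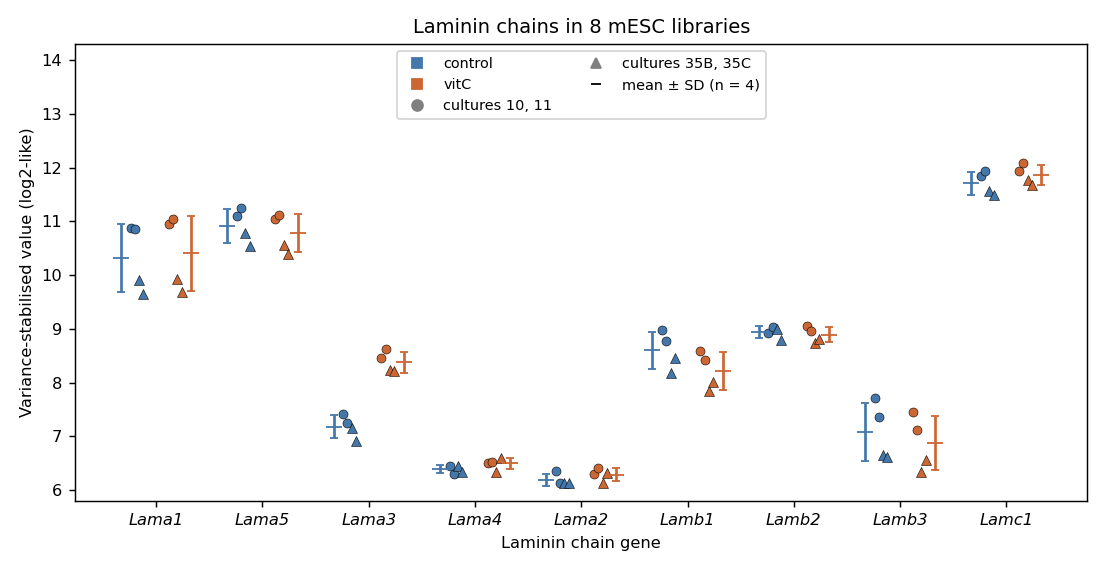
Variance-stabilised value (log2-like, vertical axis) of each laminin chain gene (horizontal axis) in the 8 mESC libraries, control in blue and vitC in orange, circles for cultures 10 and 11 and triangles for 35B and 35C, with bars for the mean ± SD of 4 libraries. The vitC points of Lama3 lie above all its control points, whereas the points of every other chain overlap between the groups. For Lama1, Lama5, Lamb3 and Lamc1 the points separate by culture set.

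Of the 9 chains, Lama3 alone had all vitC libraries above all controls, a pattern found in 3.31% of the 14631 genes tested, and 0 chains had all vitC libraries below all controls, beside 1.98% of genes. All 9 chains passed the filter for testing, Lama2 with reads in 1 control and 3 vitC libraries. In the unpaired fit 1 of 9 chains, Lama3, was called higher and 0 lower, against 0.342% of all genes called in either direction and 0.0205% called lower. In the paired fit 2 chains were called higher, Lama3 and Lamc1, and 3 lower, Lama5, Lamb1 and Lamb3, against 6.36% of genes higher and 4.44% lower. Because the chains were chosen with this contrast known, nothing is read from these counts. The median difference was 0.08 over the 9 chains and 0.02 over the 8 without Lama3, beside -0.00 over all genes tested.

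The other abundant alpha chains differed little next to Lama3. Lama1, the alpha chain of the earliest embryonic basement membranes, had 1752, 1713, 831 and 675 normalised reads in the controls and 1846, 1986, 837 and 696 after vitC. The vitC library was the higher of each pair, by 0.01 to 0.20 on the variance-stabilised scale, but the groups overlapped almost fully because cultures 10 and 11 were far above 35B and 35C in both. Lama5, the alpha chain of most later basement membranes, had 2058, 2290, 1624 and 1364 normalised reads in the controls and 1972, 2097, 1377 and 1212 after vitC. It was the lower of each pair after vitC, with a mean difference of -0.14 (SE 0.19 unpaired, 0.04 paired) and overlapping groups. Lama4 and Lama2 were near the limit of detection, where reads rather than ratios are informative. Lama4 had 4, 1, 3 and 2 reads in the controls and 5, 6, 1 and 7 after vitC. Lama2 had 2, 0, 0 and 0 reads in the controls and 1, 3, 0 and 1 after vitC. No direction can be given for Lama2 or Lama4 at this depth.

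As a share of the summed level per kb of the 5 alpha chains, Lama3 took 1.51%, 1.10%, 1.47% and 1.02% in the control libraries and 5.47%, 6.06%, 7.47% and 8.36% in the vitC libraries. Its mean share was 1.28% ± 0.253 in controls and 6.84% ± 1.32 after vitC (SD, n = 4). Lama5 took 56.0% ± 6.58 in controls and 49.0% ± 5.50 after vitC, and Lama1 42.6% ± 6.52 and 43.9% ± 6.86. Lama3 thus remained the third alpha chain in every vitC library, far below Lama5 and Lama1. Per kb it reached 20.0 ± 4.19 normalised reads, a range that overlapped that of Lamb1 at 31.3 ± 11.9. With the union of exons as the length, the means were 19.6 ± 4.11 for Lama3 and 18.2 ± 6.95 for Lamb1, again with overlapping ranges, and Lamb1 was the higher in vitC replicate 1.

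**Figure D2:**
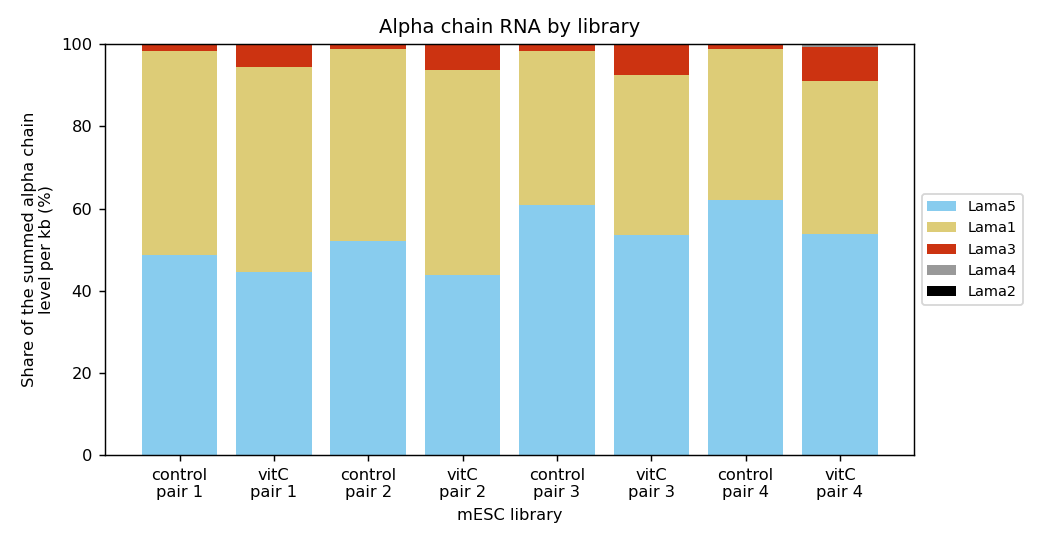
Share of the summed alpha chain level per kb (%, vertical axis) taken by Lama5, Lama1, Lama3, Lama4 and Lama2 in each of the 8 mESC libraries (horizontal axis), pairs side by side. The red segment for Lama3 is between 1.02% and 1.51% in the controls and between 5.47% and 8.36% after vitC, while Lama5 and Lama1 fill most of each bar.

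The beta chains did not follow Lama3. Lamb1, the beta chain that joins Lama1 or Lama5 in the embryo, had 376, 308, 168 and 228 normalised reads in the controls and 259, 217, 111 and 137 after vitC. It was the lower of every pair by 0.35 to 0.46, with a mean difference of -0.39 (SE 0.20 unpaired, 0.05 paired) and a fitted ratio of 0.666, although the groups overlapped. Lamb2, the beta chain of synaptic and kidney basement membranes, had 357, 396, 380 and 315 normalised reads in the controls and 400, 367, 301 and 321 after vitC. It was higher in 2 pairs and lower in 2. Lamb3, which assembles with Lama3 in epithelia, had 93.4, 53.8, 9.09 and 8.13 normalised reads in the controls and 63.6, 34.1, 1.53 and 6.49 after vitC. It was the lower of each pair after vitC, with a mean difference of -0.21 (SE 0.29 unpaired, 0.06 paired), and in cultures 35B and 35C it rested on 8 and 11 reads in the controls and on 1 and 6 after vitC.

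Lamc1, the gamma chain of most laminins, had 3571, 3775, 2899 and 2743 normalised reads in the controls and 3782, 4207, 3349 and 3146 after vitC. It was the higher of every pair by 0.08 to 0.20, with a mean difference of 0.15 (SE 0.12 unpaired, 0.03 paired) and overlapping groups. Over all genes, 15.4% were higher in all 4 pairs and 14.4% lower, and among the 9 chains 3 were higher (Lama1, Lama3 and Lamc1) and 3 lower (Lama5, Lamb1 and Lamb3).

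**Figure D3:**
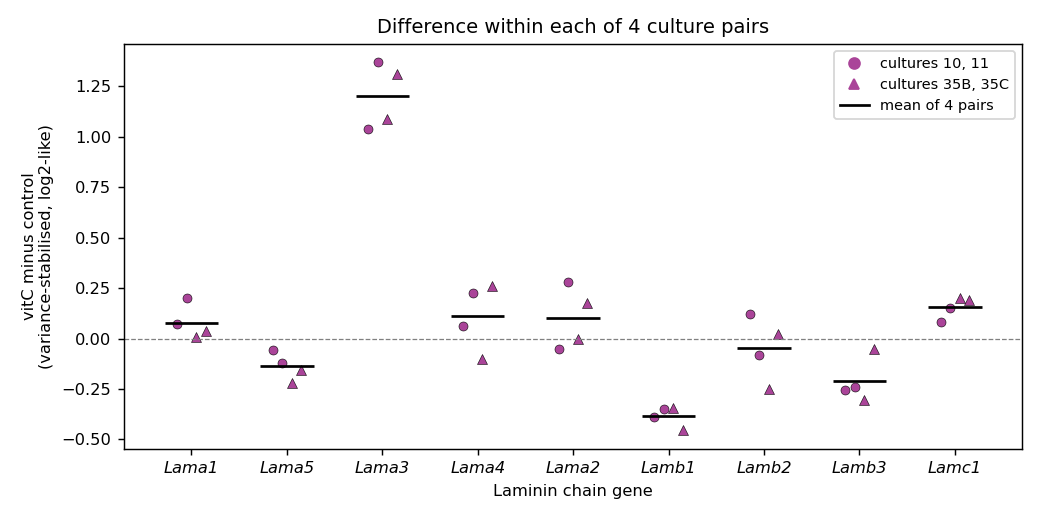
vitC minus control on the variance-stabilised scale (vertical axis) within each of the 4 culture pairs for each chain gene (horizontal axis), with a line at the mean of the pairs. Lama3 lies between 1.04 and 1.37, Lamb1 between -0.46 and -0.35, and all other chains between -0.30 and 0.28.

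The balance between chains that can share a trimer can be read per kb. The ratio of Lama3 to Lamb3 was 0.293, 0.385, 1.85 and 1.17 in the controls and 1.63, 3.62, 53.5 and 12.4 after vitC. The value of 53.5 rests on 1 read of Lamb3. The ratio of Lamb1 to Lamc1 was 0.139, 0.107, 0.0764 and 0.110 in the controls and 0.0903, 0.0678, 0.0435 and 0.0575 after vitC, and it was the lower of each pair.

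The starts of Lama5 and Lamb1, both lower in each pair after vitC, are shown with that of Lamb2, which had no common direction. CpG dinucleotides are in capitals, since vitC is known to support the TET enzymes, which act on methylated CpG. Of the 9 chains, 5 had an entry in the RefSeq promoter table of GRCm38.p6, and Lama3 was not among them. From the 250 bases before the listed start, the part that precedes any annotated start of the gene is printed, 5′ to 3′ on the strand of the gene. The windows are chr2:180225905-180226109 on the minus strand for Lama5, chr12:31265043-31265145 on the plus strand for Lamb1 and chr9:108479612-108479735 on the plus strand for Lamb2.
Lama5: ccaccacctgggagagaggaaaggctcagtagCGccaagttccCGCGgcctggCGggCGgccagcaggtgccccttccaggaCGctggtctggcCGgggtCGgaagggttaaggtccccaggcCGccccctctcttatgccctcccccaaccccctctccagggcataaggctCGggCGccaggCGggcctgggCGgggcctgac
Lamb1: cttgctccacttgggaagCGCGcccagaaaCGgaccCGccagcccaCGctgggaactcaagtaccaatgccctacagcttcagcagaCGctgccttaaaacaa
Lamb2: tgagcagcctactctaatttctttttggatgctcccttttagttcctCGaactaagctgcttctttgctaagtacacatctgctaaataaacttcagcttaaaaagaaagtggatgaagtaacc
The printed runs of 205, 103 and 124 bases hold 13, 6 and 1 CpG. Over the full 250 bases the counts were 19 for Lama5, 14 for Lamb1 and 3 for Lamb2, beside a median of 6 over the 32851 promoters in the table. Over these 250 bases the letters CCGCCC, read on both strands, occurred 4 times for Lama5, 2 for Lamb1 and 0 for Lamb2. They occurred in 32.7% of all promoters at this length, and not all of these sites lie in the printed runs. Lamb3 was also lower in each pair after vitC, but the 250 bases before its listed starts held only 2 and 3 CpG and no CCGCCC. No base of these stretches precedes every annotated start of Lamb3, so none is printed. Lama2, the remaining chain with an entry, held 0 CpG and no CCGCCC in its 250 bases, none of which is printed. These counts describe the sequence, and methylation was not measured in these libraries. A link between CpG content and the vitC difference was not tested.

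The genes next to the chains in the genome were compared in the same way. Lama3 lies between Npc1, a lysosomal cholesterol transporter 97418 bases away, and Ttc39c, 16882 bases away. Npc1 differed by 0.04 (SE 0.09 unpaired) and Ttc39c by 0.13 (SE 0.10 unpaired), and neither was past the threshold in either fit. Of the 17 nearest tested neighbours that are no laminin gene, 0 passed in the unpaired fit of limma or of edgeR, with 0 at an unadjusted p under 0.05 in each. With the pair as a block, E330020D12Rik next to Lamc1 rose by 0.28 (limma adjusted p = 0.00476), and 0 fell.

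Over the 8 mESC libraries, the genes whose values followed Lama3 most closely were Spna1, Mgat4c, Ube2dnl, Neo1 and Ly6a. Pearson's r with Lama3 was 0.997 for Spna1, an erythroid spectrin, and 0.990 for Mgat4c, a glycosyltransferase of the Golgi. It was 0.984 for Ube2dnl, 0.983 for Neo1, a netrin and RGM receptor, and 0.980 for Ly6a, a cell surface antigen. All 5 were higher in each of the 4 pairs. Among the chains, r was 0.63 for Lamc1, 0.62 for Lama2, 0.61 for Lama4 and 0.32 for Lama1. It was 0.03 for Lama5, 0.01 for Lamb3, -0.02 for Lamb2 and -0.34 for Lamb1. The values of Lama2 and Lama4 rest on 2 and 10 reads over all controls and 5 and 19 after vitC, too few to rank them. These coefficients describe libraries that share a treatment and a culture set, and carry no test.

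Most of the chains were called lower in 1 of the culture sets, a contrast that was not used to choose them. Cultures 35B and 35C were compared with 10 and 11 over 8 libraries, with vitC as a covariate, to ask how far the chains differ between cultures of the same line. These libraries come from 4 cultures, so the comparison is of 2 cultures against 2, and its SE and p-values over 8 libraries are too small. Of the 9 chains, 7 were lower in 35B and 35C and 0 higher, against 40.5% of all genes called, 21.5% lower and 18.9% higher. With the mean of each culture as the unit, 6 of 9 chains were lower and 0 higher (limma), against 32.8% of all genes called and 18.1% lower, and Lamb2 was the chain no longer called. The median difference was -0.33 over the chains and -0.01 over all genes. For Lama1, Lama5, Lamb3 and Lamc1 all 4 libraries of 35B and 35C lay below all 4 of 10 and 11, as for 16.8% of all genes. What else differed between the culture sets is not given in the sources used here, so that their biology and their handling cannot be told apart.

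Lama1 showed the largest set difference among the chains on the variance-stabilised scale. Its normalised reads were 1713 to 1986 in cultures 10 and 11 and 675 to 837 in 35B and 35C, a difference of -1.14 (SE 0.06, limma adjusted p = 1.08e-10, and 5.35e-07 over culture means) or 2.40-fold on recovered reads. Lamb3 went from 61.2 ± 24.7 to 6.31 ± 3.36 normalised reads (SD over 4 libraries of 2 cultures), a difference of -0.87 (SE 0.08, limma adjusted p = 2.08e-07, and 3.12e-05 over culture means) and 9.21-fold on recovered reads. Lamb1 differed by -0.56 (SE 0.07, limma adjusted p = 2.97e-06) and Lama5 by -0.55 (SE 0.06, limma adjusted p = 4.05e-07). Both were also lower after vitC in each pair, and the set difference was the larger for each. Lamc1 differed by -0.33 (SE 0.05, limma adjusted p = 2.07e-05) and Lama3 by -0.31 (SE 0.06, limma adjusted p = 0.000695). Over culture means the adjusted p-values of Lamb1, Lama5, Lamc1 and Lama3 were between 0.000113 and 0.00272 (limma). For Lama3 the set difference was smaller than the vitC difference of 1.20.

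Lamb2 was at the edge of the threshold, with -0.16 (SE 0.06, limma adjusted p = 0.0328). Its call was lost without control replicate 2 or 4 or any 1 of the vitC replicates, where the adjusted p was 0.0607 to 0.119. It was also lost with quantile normalization (limma adjusted p = 0.0588) and over culture means (limma adjusted p = 0.0520). Lama2 and Lama4, the chains with few reads, differed by -0.12 (limma adjusted p = 0.192) and -0.01 (limma adjusted p = 0.907). Summed markers of primitive and parietal endoderm, a cell type that secretes much laminin, were at 128 to 224 normalised reads in cultures 10 and 11 and 89.7 to 108 in 35B and 35C. The single markers were mixed. Of 12 tested, 4 were called lower in 35B and 35C and 1 higher (limma), against 21.5% of all genes lower and 18.9% higher. The higher gene was Sox7, by 0.27 (limma adjusted p = 0.00423). Of these 15 markers, Afp and Sox18 had no read in any library, and the part of such cells in the set difference was not tested.

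**Figure D4:**
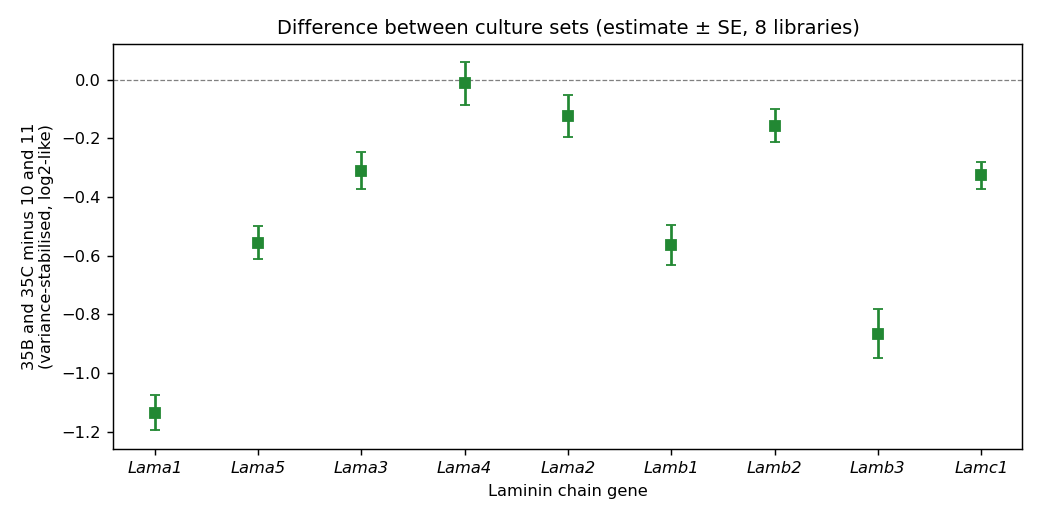
Difference between cultures 35B and 35C and cultures 10 and 11 (variance-stabilised scale, vertical axis) for each chain gene (horizontal axis), as the estimate ± SE from 8 libraries of 4 cultures. Lama1 at -1.14 and Lamb3 at -0.87 lie lowest, and the bar of Lama4 crosses 0.

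The vitC difference was not shown to depend on the culture set for any chain. On the variance-stabilised scale the interaction of vitC and culture set gave -0.00 for Lama3 (SE 0.13). It lay between -0.14 and 0.08 for the 9 chains. No gene passed the threshold for it in limma or edgeR (0.0% of those tested), 601 genes had an unadjusted p under 0.05 in limma, and none of these was a member of the 9 chains. With the pair as a block 13 genes passed, none of them a laminin chain.

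Genes that work with laminins were read from lists of basement membrane partners, receptors, netrins, dystroglycan glycosylation, secretion and hemidesmosomes, 78 of whose genes were tested. In the unpaired fit 0 of the 78 were past the threshold in limma and 0 in edgeR, with 11 at an unadjusted p under 0.05 in limma. With the pair as a block 8 rose and 13 fell, against 6.36% of all genes higher, 4.44% lower and 10.8% in either direction. The same shares stand beside the count of each list below. The median difference over the 78 was -0.03. The values that follow are from this paired fit, and in the unpaired fit these genes had limma adjusted p-values between 0.0538 and 0.950.

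In the basement membrane, 4 of 17 tested genes rose and 1 fell in limma, and 7 were called in edgeR. Fn1, which encodes fibronectin, went from 8151 ± 2522 to 10325 ± 3048 normalised reads (SD, n = 4), a difference of 0.34 (paired SE 0.03, limma adjusted p = 1.17e-07). The heparan sulphate proteoglycans Agrn and Hspg2, which bind laminin and dystroglycan, rose by 0.23 and 0.21, and the laminin-binding nidogen Nid2 rose by 0.19. Col18a1 fell by 0.16. In the paired edgeR fit Col4a1 and Nid1 were also called lower, at -0.57 and -0.13 on the log2 scale (adjusted p = 0.00996 and 0.0264, edgeR). Each was lower in 3 of 4 pairs. Col4a3, Col4a4, Col15a1 and Lox had no read in any mESC library.

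Of 22 tested receptor and adhesion genes, 2 rose and 5 fell. Fermt2, an activator of integrins, went from 639 ± 22.7 to 818 ± 28.3 normalised reads (SD, n = 4) and rose by 0.30, and Tln1, which links integrins to actin, rose by 0.16. The fallen genes included Itgb1, the common beta subunit of laminin-binding integrins, by 0.18 and Bcam, a receptor of Lama5, by 0.21. Mcam fell by 0.27, the syndecan Sdc1 by 0.17 and Itga9 by 0.26, the last in limma but not in the paired edgeR fit (edgeR adjusted p = 0.0857). Itga6 and Itgb4, the integrin pair that binds the Lama3 laminin at hemidesmosomes, differed by 0.05 and -0.17 and were not past the threshold in limma (adjusted p = 0.479 and 0.0701, paired). In the paired edgeR fit Itgb4 was called lower, at -0.52 on the log2 scale (adjusted p = 0.0258, edgeR), and it was lower in 4 of 4 pairs. Dag1, which encodes dystroglycan, differed by 0.02 (limma adjusted p = 0.839, paired).

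Of 16 tested genes for laminin secretion, processing and breakdown, 1 rose and 6 fell in limma, against 6.36% of all genes higher and 4.44% lower. The 6 encode chaperones and disulphide isomerases of the endoplasmic reticulum, where laminin trimers fold. Pdia6 fell by 0.27, Hsp90b1 by 0.26, Hspa5 by 0.22, Calr by 0.20, Pdia3 by 0.12 and Canx by 0.11, each lower in 4 of 4 pairs. The lysosomal protease Ctsl rose by 0.17. Pdia4 and P4hb were also called lower in the paired edgeR fit (adjusted p = 0.0287 and 0.0494, edgeR). Of 15 genes for dystroglycan glycosylation 0 rose and 1, Tmem5, fell by 0.17, and of 3 tested netrins 0 passed in limma or edgeR, with 1 at an unadjusted p under 0.05 in limma and 0 in edgeR. In the hemidesmosome and epidermal list Plec rose by 0.13, and the epidermal genes Krt5, Krt14 and Dsg3 had no read in any library. Between the culture sets, 11 of 17 basement membrane partners were lower in 35B and 35C and 2 higher, and 6 of 22 receptor genes were lower and 6 higher, against 21.5% of all genes lower and 18.9% higher.

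Markers of other cell types were also compared between control and vitC libraries, with 6.36% of all genes higher and 4.44% lower in the paired limma fit. In the paired fit 2 of 12 tested endoderm markers, Pdgfra and Hnf4a, rose by 0.23 and 0.22 and 0 fell (limma, with 4 of the 12 at an unadjusted p under 0.05 and 3 called in edgeR). Lrp2 was the other gene called in edgeR, higher in 4 of 4 pairs by 0.16 (edgeR adjusted p = 0.0386, paired). Others went the other way without passing, with Cubn at -0.24, Sox7 at -0.13 and Gata4 at -0.10, each lower in 4 of 4 pairs. Cubn, Sox7 and Gata4 rest on 21, 24 and 33 reads over all controls and 5, 9 and 16 after vitC. Pdgfra and Hnf4a rest on 46 and 80 reads over all controls and 76 and 132 after vitC. The median over the list was -0.02, and the summed level of the 15 endoderm markers was 89.7 to 141 normalised reads in controls and 90.8 to 224 after vitC. Of 8 tested trophectoderm markers 1, Tfap2c, rose by 0.26. Krt8 at -0.15 and Eomes at -0.11 were lower in 4 of 4 pairs without passing in limma, and Krt8 was called lower in the paired edgeR fit (edgeR adjusted p = 0.0455). The median over this list was 0.00, with a summed level of 454 to 489 in controls and 472 to 557 after vitC. Of 4 tested fibroblast markers 0 passed in limma and 1, Col1a2, in edgeR, with 2 at an unadjusted p under 0.05 in each, and the summed level was 33.9 to 88.6 in controls and 61.1 to 83.8 after vitC. Of 14 pluripotency markers 3 rose in the paired limma fit, Klf5, Tfcp2l1 and Dppa3, and 4 fell, Pou5f1, Nanog, Klf2 and Zfp42. The part of other cell types in the laminin differences was not tested.

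In hESCs there was 1 library per condition, so that no test was possible and the intervals below cover counting error only. LAMA3 was close to the limit of detection, with 9 reads in the control and 7 after vitC, a log2 ratio of read shares of -0.52 (95% exact interval -2.18 to 1.07). With 1 library per condition and so few reads, no comparison with mESCs was made. LAMB3 was as rare, with 11 and 7 reads, a log2 ratio of -0.81 (95% interval -2.42 to 0.68).

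The abundant human chains differed little. LAMC1, with 5359 reads in the control and 5307 after vitC, had a log2 ratio of -0.18 (95% interval -0.23 to -0.12), and LAMA1, with 2014 and 2000 reads, of -0.17 (-0.26 to -0.08). LAMA5, with 1943 and 2375 reads, had 0.13 (0.04 to 0.22). LAMB1, with 4108 and 4635 reads, had 0.01 (-0.05 to 0.07), and LAMB2, with 1078 and 1239 reads, had 0.04 (-0.08 to 0.16). LAMA4 had 35 and 40 reads and LAMC3 110 and 148, and both intervals included 0. LAMA2, with 51 and 32 reads, had -0.83 (-1.52 to -0.17). Of the 9 chains, which do not include LAMC3, 7 had at least 20 reads in both libraries. Among these LAMA2 alone was at least 1.5-fold apart, as were 4.16% of the 13265 genes with such reads.

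**Figure D5:**
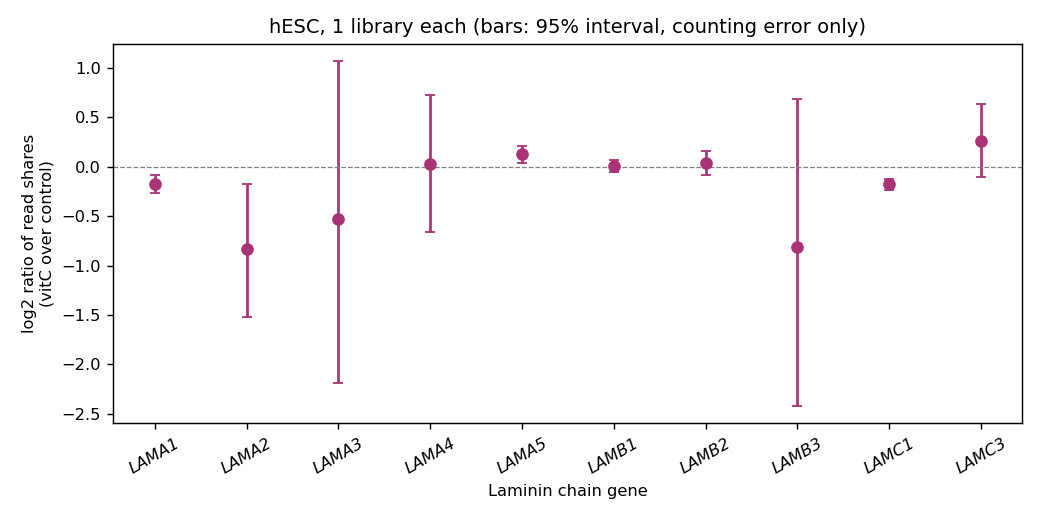
Log2 ratio of read shares, vitC over control (vertical axis), for each laminin chain gene (horizontal axis) in hESCs, 1 library per condition, with bars for the 95% exact interval of counting error. LAMA3 at -0.52 and LAMB3 at -0.81 have the widest bars, and the abundant chains LAMA1, LAMA5, LAMB1, LAMB2 and LAMC1 lie between -0.18 and 0.13.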

How the data were processed

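Gene values were analysed for 8 mESC and 2 hESC libraries, grouped by their labels. The submitters' processing notes name Trim Galore, HISAT2 and DESeq2, with mm10 and hg38, and no versions. The authors deposited variance-stabilised gene values on a log2 scale, and a separate table with the aligned library size as an estimated count, used here, rounded, as an alternative depth. Inverting the transformation returned integers for 100% of values over the minimum (tolerance 0.001). 9 other columns of per-sample values were not used. Libraries were directional. The study's methods state rRNA depletion, whereas the labels name rRNA depletion or mRNA isolation without saying which for each library.

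Genes that exceeded the table's minimum in 4 or more libraries were tested with limma 3.58.1 (lmFit, eBayes with trend) in R 4.3.3, with Benjamini-Hochberg adjustment over 14631 genes and a threshold of 0.05. The fit had no block, since the study's methods name none. The labels' culture numbers pair the libraries, so a fit with the replicate block was added. Deviations from group means correlated at 0.626 to 0.765 within pairs. Between unpaired control and vitC libraries of the same culture set they correlated at 0.574 to 0.665. These ranges overlap, so the correlations do not separate the pair from the culture set. Culture sets were compared with treatment as a covariate over libraries, and, after seeing the data, over culture means and with a correlation within cultures (duplicateCorrelation). Recovered reads were tested with edgeR 4.0.16 (TMM, quasi-likelihood) and DESeq2 1.42.0. Levels per kb use GENCODE transcript lengths of GRCm38. The libraries come from separately labelled cultures of 1 line, so p-values of the unpaired vitC fit and over culture means measure the spread between these cultures. Those of the paired fit measure how the vitC difference varies between the 4 pairs. Those of the culture set over 8 libraries count 2 libraries of each culture as separate. hESC intervals are exact Clopper-Pearson limits at 95%, and cover only counting error, because the reads carry no molecular identifiers and are not separate molecules. Scripts were tested on simulated data.

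Members and gene lists were chosen with earlier results of these data known. Named were the laminin chains, the genes of each list past the threshold in either fit (at most the 6 with the largest differences) and up to 3 of its most abundant, the nearest tested neighbours, and the 5 genes most like Lama3. Col1a2, Col4a1, Cubn, Dag1, Eomes, Gata4, Itga6, Itgb4, Krt8, Lrp2, Nid1, P4hb, Pdia4 and Sox7 were added after their values were seen. So were some genes at 0 reads and a seventh pluripotency marker. Older symbols were matched for 6 list genes, and B4gat1 and Mia3 were not matched. A further gene result is not reported here.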

Additional observations from a re-analysis of the deposited data

Results flagged for a closer look

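Over 18 groups of 4 mESC libraries, formed by 9 laminin genes and both conditions, 1 held a library far from the others, and chance alone gives about 1 such group in 20. It was Lama2 in the controls, with 2 reads in replicate 1 and 0 in the other 3 libraries, so that the gap filled the whole range (a share of 1). The upper limit that 0 reads allow is 3 reads in a library, so the 4 controls cannot be told apart at this depth.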

How the results depend on the processing

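Depth limits Lama2 and Lama4 in mESCs and LAMA3 and LAMB3 in hESCs, and the culture sets widen the unpaired error. With the replicate block, genes called for vitC went from 50 to 1581 in limma and from 38 to 1947 in edgeR, and genes of the 78 in the pathway lists from 0 in both to 21 and 25. Genes called were 118 with DESeq2 (2 of the 78), 28 among genes above the lowest value in all libraries, 175 with replicates 1 and 2 only (2 of the 78), 4 with replicates 3 and 4 only and 19 to 32 without any 1 library. Genes with a different vitC effect by culture set went from 0 to 13 with the replicate block. The median hESC log2 ratio over the 9 chains went from -0.17 to -0.0179 on variance-stabilised values. The causes were not tested.

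The vitC difference of Lama3 was 1.11 to 1.28 without any 1 library, and between 2.36 and 2.40 as a log2 fold change on recovered reads. The difference of Lama1 was -0.14 to 0.31 without any 1 library, turning negative in 4 of these 8 fits, which leave a pair incomplete. The ranges of the other chains were -0.26 to -0.01 for Lama5, -0.52 to -0.26 for Lamb1, -0.41 to -0.00 for Lamb3, 0.08 to 0.23 for Lamc1, 0.06 to 0.16 for Lama2, 0.08 to 0.16 for Lama4 and -0.10 to 0.00 for Lamb2, which was also at 0.02 with replicates 1 and 2 only. Chains called for the culture set were 6 or 7 under each alternative run, and 6 over culture means and with the replicate block as a correlation within cultures (0.127), both chosen after seeing the data. No paired analysis was possible for hESCs because there is 1 pair.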
